A study of Mus musculus with 12 samples.

Results

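The 45 genes described here act late in the cell cycle, at G2, mitosis and cytokinesis. They were chosen by name, but with earlier results of these data known. Probes whose accession maps to one of the 45 symbols were looked up on 12 whole-liver arrays of mice. Of the 45 genes, 43 had a probe with a matched accession, which left out Mki67 and Cenpf. No probe of Aurkb or Kif18a passed the filter on dim probes. The remaining 41 were measured, among 25261 genes or unnamed accessions in all.

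Dividing cells build up these transcripts in G2 and destroy many of their proteins at the end of mitosis. Cyclins A and B with the kinase CDK1 drive entry into mitosis, polo-like and aurora kinases build the spindle, and the checkpoint kinases hold the anaphase promoting complex back until every kinetochore is attached. In a resting adult liver few hepatocytes divide, and drugs that activate the nuclear receptor PPARα, such as Wy-14643, are known to make rodent hepatocytes divide. MYC is a transcription factor that promotes growth and division.

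All mice were C57BL/6 by the labels, carried MycF/F alleles and ate a control diet or a diet with 0.1% Wy-14643 for 2 days. MycF/F livers gave 1 array after the control diet, whose RNA is labelled as pooled, and 3 arrays after Wy-14643. MycF/F,ERT2-Cre livers gave 4 arrays for either diet. The labels call MycF/F "wt" and MycF/F,ERT2-Cre "ko". The sources used here do not give tamoxifen treatment, the promoter of the ERT2-Cre transgene, sex, age or which animal a sample came from. Because the labels do not say that samples of a group are separate animals, p-values measure only the spread between these samples, which may be technical. Sample RNA was read in Cy5 against a pooled liver reference in Cy3 on each array, and every level below is a log2 Cy5/Cy3 ratio, so 0 is the level in the reference.

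Myc, the gene that the ERT2-Cre genotype is meant to remove, had 3 kept probes. On one of them the log2 ratio was 0.22 in the MycF/F control and 0.90, 0.53 and 0.88 on the 3 arrays after Wy-14643. The 8 MycF/F,ERT2-Cre arrays lay lower, at -0.85, -0.22, -0.91 and -1.05 on control diet and -1.20, -1.15, -0.96 and -1.03 on Wy-14643. A second probe separated the genotypes in the same way, from 0.20 to 0.86 against -1.37 to -0.35. The brightest probe did not, with 0.51 to 0.62 in MycF/F and -0.07 to 0.72 in MycF/F,ERT2-Cre. Which of the 3 lies in the deleted part of Myc is not known here, since probe positions were not mapped.

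The arrays lay on 3 slides, each scanned at its own time. On the arrays of slide 1, 5.47% to 8.35% of spots were flagged as outliers, against 0.904% to 1.84% on slides 2 and 3. A control array of MycF/F,ERT2-Cre, replicate 2 on slide 1, had a compressed range: the median absolute deviation of its log2 ratios over all genes was 0.09, against 0.23 to 0.30 on the other 11 arrays. Between 64.6% and 77.1% of spots were well above background in Cy5. The 9 hepatocyte markers, Alb and Ttr among them, were well above background on all 12 arrays. Of the 41 measured genes, 28 were well above background on all 12 arrays and the other 13 on at least 5. For 6 of the 13 (Cdk1, Bub1, Bub1b, Ckap2l, Nuf2 and Spag5) no probe was well above background on any MycF/F,ERT2-Cre array on Wy-14643, so their level there is only bounded from above.

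Promoters of many G2/M genes carry a CHR element, bound by the MuvB core that represses in resting cells and, together with MYBL2 and FOXM1, activates in G2, beside CCAAT boxes bound by NF-Y. RefSeq (GRCm38.p6) windows of 300 bases, from 250 before to 50 after a start site, were found for 38 of the 45 genes. The letters TTTGAA or TTCGAA, read on both strands, stood in 32 of the 40 windows of these genes (80.0%), against 19.2% of all 32851 windows in the table. CCAAT, read on both strands, stood in 31 of the 40 (77.5%), against 37.4% of all windows. Both motifs stood together in 70.0% of the windows, against 7.52% of all. Of the 12 genes that fell on Wy-14643 in MycF/F,ERT2-Cre livers, described below, 10 had a window, and all 11 windows of these 10 genes held both motifs. Ckap2l, among them, passed the filter on dim probes only through the MycF/F,ERT2-Cre control arrays. Among the 24 genes with a window that were measured and not called, 13 had a window with both. A match is a description of letters, not a site.

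The windows of Cdc20, Ccnf and Top2a are shown because these genes fell most, and that of Spc25 because it was the gene that rose. Birc5 is shown as a window with neither motif. The windows of Kif18a, Melk, Nuf2 and Nusap1, not shown, held neither motif as well. Each window shown runs from 230 bases before the start to 30 after it, 5′ to 3′ on the gene's strand. TTTGAA or TTCGAA and CCAAT of either strand are in capitals. The Cdc20 window is chr4:118437314-118437573 (minus strand), Ccnf chr17:24251380-24251639 (minus), Top2a chr11:99024160-99024419 (minus), Spc25 chr2:69206184-69206443 (minus) and Birc5 chr11:117849007-117849266 (plus).
Cdc20: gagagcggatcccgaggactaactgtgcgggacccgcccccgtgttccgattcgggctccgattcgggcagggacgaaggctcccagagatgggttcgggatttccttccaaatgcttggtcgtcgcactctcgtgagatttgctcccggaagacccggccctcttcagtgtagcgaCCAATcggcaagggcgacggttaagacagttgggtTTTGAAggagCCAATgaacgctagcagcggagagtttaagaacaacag
Ccnf: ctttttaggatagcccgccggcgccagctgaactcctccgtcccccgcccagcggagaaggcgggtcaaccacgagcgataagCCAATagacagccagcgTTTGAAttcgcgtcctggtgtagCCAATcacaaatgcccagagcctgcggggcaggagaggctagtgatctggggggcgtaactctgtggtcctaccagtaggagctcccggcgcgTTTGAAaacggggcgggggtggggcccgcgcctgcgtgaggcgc
Top2a: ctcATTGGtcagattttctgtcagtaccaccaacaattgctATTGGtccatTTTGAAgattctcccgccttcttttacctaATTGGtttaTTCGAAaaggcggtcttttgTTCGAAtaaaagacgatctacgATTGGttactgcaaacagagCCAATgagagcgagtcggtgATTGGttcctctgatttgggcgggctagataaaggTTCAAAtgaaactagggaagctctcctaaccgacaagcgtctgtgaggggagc
Spc25: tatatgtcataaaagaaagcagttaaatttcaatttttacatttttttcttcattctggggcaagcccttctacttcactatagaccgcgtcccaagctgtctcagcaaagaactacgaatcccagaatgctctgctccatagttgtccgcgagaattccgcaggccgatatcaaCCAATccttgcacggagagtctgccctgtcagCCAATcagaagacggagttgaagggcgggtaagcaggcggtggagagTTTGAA
Birc5: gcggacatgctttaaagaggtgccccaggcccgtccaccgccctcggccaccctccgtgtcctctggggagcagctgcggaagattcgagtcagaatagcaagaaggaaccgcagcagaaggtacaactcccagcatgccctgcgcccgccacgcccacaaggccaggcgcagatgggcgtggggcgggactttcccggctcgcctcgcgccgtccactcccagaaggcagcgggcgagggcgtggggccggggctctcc
In Cdc20 the TTTGAA begins 18 bases before the start and lies between CCAAT boxes that begin 53 and 8 bases before it. Top2a held 4 such CHR matches and 6 CCAAT boxes. Spc25 held a pair of CCAAT boxes and a TTTGAA just past the start, so the gene that rose had the same letters as those that fell.

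Wy-14643 was compared with control diet in MycF/F,ERT2-Cre livers first, with 4 arrays a group. Of the 41 measured genes, 12 fell and 1, Spc25, rose at an adjusted p under 0.05 (limma, Benjamini-Hochberg over all 25134 genes tested). The 12 make up 29.3% of the 41, where 7.44% of all genes tested were called lower, 8.92% higher and 16.4% in either direction. The median difference was -0.29 over the 41 genes and 0.03 over all genes, and 32 of the 41 lay below 0. For 15 of the 41 every Wy-14643 array lay below every control array, and for Spc25 every one lay above, where 10.1% and 11.6% of all genes did so, 21.7% in either direction. Bub1 and Ckap2l passed the filter on dim probes only through the control arrays of this comparison, and without them 11 of 39 fell. Cells of whole liver were mixed, so fewer dividing cells and less RNA per cell cannot be told apart.

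The enzymes and adaptors of protein destruction in mitosis fell together, 3 of 3. Cdc20, which activates the anaphase promoting complex, read 1.03, 0.11, 0.09 and 0.11 on control diet and -1.07, -0.50, -0.72 and -0.43 on Wy-14643. The groups did not overlap, and control replicate 1 stood far above the other 3. The difference was -1.02 (SE 0.23, 2.03-fold lower, adjusted p = 0.00892). Ube2c, the ubiquitin-conjugating enzyme of that complex, read 0.88, 0.30, 0.08 and 0.38 against -0.19, -0.45, -0.44 and -0.48. Its difference was -0.80 (SE 0.16, adjusted p = 0.00455). Cdca3, an adaptor that helps destroy the CDK1 inhibitor WEE1, read 0.90, -0.01, -0.21 and 0.04 against -0.78, -0.52, -0.41 and -0.54. Its call was among the weakest (-0.74, SE 0.23, adjusted p = 0.0415) and was lost without control replicate 1 or 4 or any single one of the Wy-14643 arrays.

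Among the cyclins and CDK1, 2 of 5 genes passed the test and all 5 lay below 0. Ccnf, an F-box protein that marks mitotic regulators for destruction, read 0.47, 0.12, -0.11 and 0.49 on control diet and a narrow -0.85, -0.75, -0.65 and -0.70 on Wy-14643. It had the smallest adjusted p of the 41 (-0.98, SE 0.15, 1.98-fold lower, adjusted p = 0.000543). Ccna2, the cyclin of S phase and G2, read 0.69, 0.11, 0.34 and 0.16 against -1.07, -0.51, -0.25 and -0.13. The groups did not overlap (-0.81, SE 0.18, 1.76-fold lower, adjusted p = 0.00933). Cdk1 read 0.37, -0.09, -0.20 and 0.14 against -0.89, -0.64, -0.30 and -0.12. Its groups overlapped and it missed the threshold (-0.55, SE 0.18, adjusted p = 0.0582). With slide as a block it passed (-0.57, adjusted p = 0.0342). Its other probe, not kept, read a difference of -0.01. Ccnb1, the cyclin that CDK1 needs to enter mitosis, did not pass either (-0.31, SE 0.12, adjusted p = 0.102) but did with slide as a block (-0.25, adjusted p = 0.0461). Its probe was well above background on none of these Wy-14643 arrays, and a second kept Ccnb1 probe read -0.06 (SE 0.07). Nor did Ccnb2 pass (-0.30, SE 0.23).

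Top2a, which untangles sister chromatids, showed the largest difference of the 12. It read 0.96, 0.25, 0.42 and 0.05 on control diet and -1.61, -0.71, -0.66 and -0.23 on Wy-14643. Groups did not overlap, and replicate 1 lay farthest out in both (-1.22, SE 0.28, 2.33-fold lower, adjusted p = 0.0092). A dimmer Top2a probe, well above background on none of the Wy-14643 arrays, read a smaller difference of -0.37 (SE 0.12). Foxm1, a transcription factor that activates many G2/M genes, did not pass the test: 0.64, 0.02, 0.38 and 0.46 against 0.35, 0.31, 0.19 and 0.32 (-0.08, SE 0.15, interval -0.40 to 0.23, adjusted p = 0.772).

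**Figure D1:**
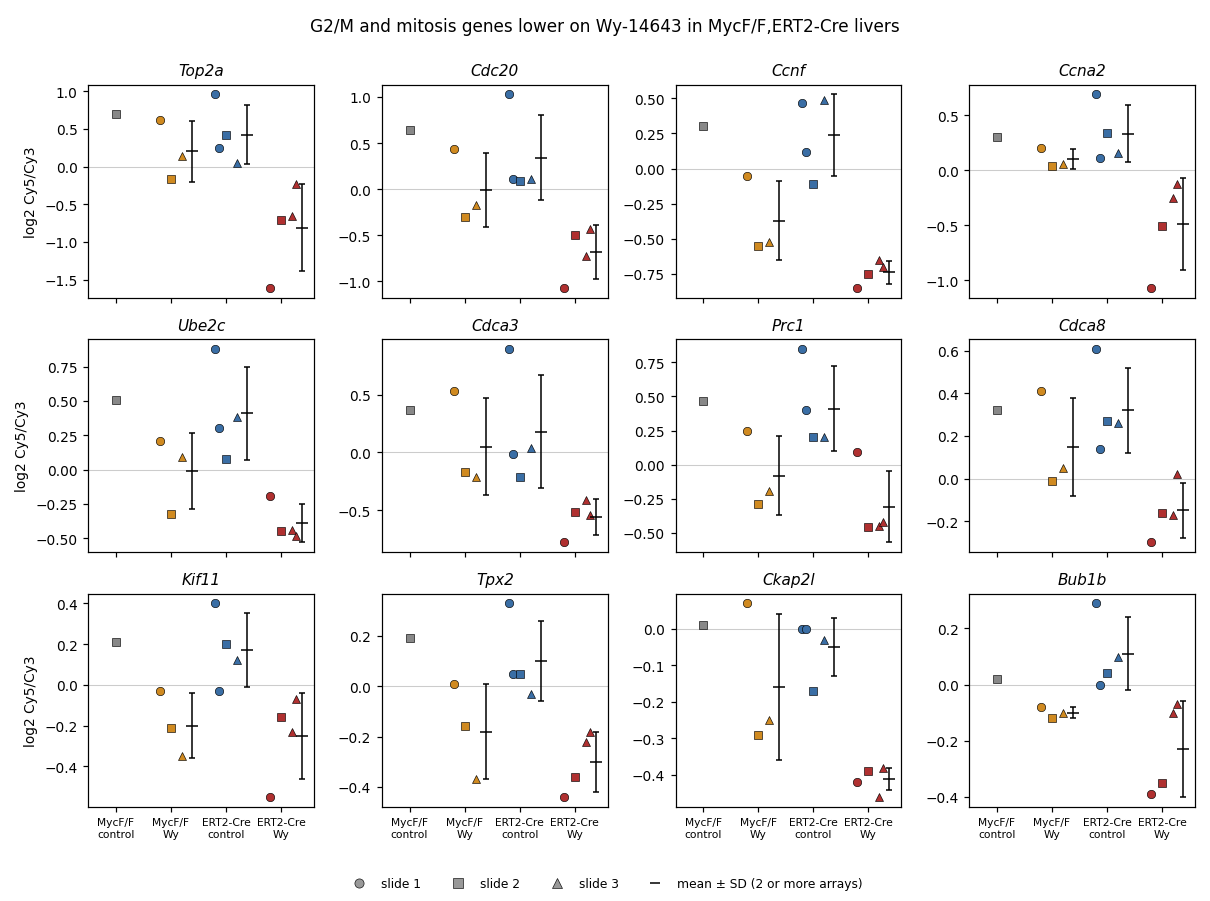
Log2 Cy5/Cy3 ratio on each array (points, shape by slide) of the 12 genes that fell on Wy-14643 in MycF/F,ERT2-Cre livers, with the mean ± SD of groups of 2 or more arrays. In each panel the 4 MycF/F,ERT2-Cre arrays on Wy-14643 lie below the 4 on control diet, and for Cdc20 a control array on slide 1, at 1.03, stands above the other 3.

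Spindle proteins gave 3 of 7. Prc1, which bundles the midzone microtubules for cytokinesis, read 0.85, 0.40, 0.20 and 0.20 against 0.09, -0.46, -0.45 and -0.42 (-0.72, SE 0.17, 1.65-fold lower, adjusted p = 0.0131). Tpx2, which activates Aurora A on the spindle, read 0.33, 0.05, 0.05 and -0.03 against -0.44, -0.36, -0.22 and -0.18 (-0.40, SE 0.11, adjusted p = 0.023), a call lost without control replicate 1 or without Wy-14643 replicate 1 or 2. Ckap2l, a protein of spindle poles, read 0.00, 0.00, -0.17 and -0.03 against -0.42, -0.39, -0.46 and -0.38. Its difference was -0.36 (SE 0.09, adjusted p = 0.0139), with the probe not well above background on Wy-14643. Set against a floor for the dim group, described below, it was 1.18-fold lower, which is not a strict lower bound. Ckap2l passed the filter on dim probes only through these control arrays, the group where it was higher, which limits the weight of its call. Spag5 and Hmmr lay below 0 and Dlgap5 above it, none of them called (-0.33, -0.24 and 0.30), and Nusap1 stood at -0.14.

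Of 6 measured spindle motors only Kif11, the kinesin that pushes the poles apart, was called. It read 0.40, -0.03, 0.20 and 0.12 against -0.55, -0.16, -0.23 and -0.07 (-0.42, SE 0.12, adjusted p = 0.0318), and its dimmer probe read -0.14 (SE 0.07). The call was lost under 9 of the 25 alternatives of the processing, among them leaving out control replicate 1, 3 or 4 or Wy-14643 replicate 1, 2 or 3. The other 5 (Kif15, Kif20a, Kif23, Kif2c and Kif4) ran from -0.29 to 0.27.

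Of the 8 measured mitotic kinases, 1 fell. Bub1b, a kinase-like component of the checkpoint that restrains Cdc20, read 0.29, 0.00, 0.04 and 0.10 against -0.39, -0.35, -0.10 and -0.07 (-0.34, SE 0.10, adjusted p = 0.0293). The probe was not well above background on Wy-14643, and the call was lost under 9 of the 25 alternatives, among them leaving out control replicate 1 or 4 or Wy-14643 replicate 1 or 2. Plk1, the polo-like kinase, read 0.49, 0.21, 0.18 and 0.14 against 0.13, 0.22, 0.00 and 0.00, overlapping groups that did not pass (-0.17, SE 0.10, adjusted p = 0.336). Aurka (-0.34), Bub1 (-0.23), Melk (-0.23), Pbk (-0.50), Ttk (-0.09) and Nek2 (0.23) did not pass. Aurkb, the kinase of the chromosomal passenger complex, was well above background on 1 of 12 arrays and has no value. Of its partners, Cdca8, which targets the complex to centromeres, fell: it read 0.61, 0.14, 0.27 and 0.26 against -0.30, -0.16, -0.17 and 0.02 (-0.47, SE 0.12, adjusted p = 0.0187). Birc5, also known as survivin, did not: 1.17, 0.53, 0.99 and 0.80 against 0.67, 0.92 and 0.77, with the spot of Wy-14643 replicate 1 left out as an outlier (-0.08, SE 0.14, adjusted p = 0.76). Of the cytokinesis genes, none of 3 passed: Racgap1 stood at -0.39, Ect2 at -0.24 and Anln at 0.46.

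Of the 5 measured centromere and kinetochore genes, 1 rose and none fell. Spc25, a subunit of the NDC80 complex that holds microtubules to the kinetochore, rose from -1.54 and -1.77 on control diet to -0.72, 0.32, 0.07 and 0.16 on Wy-14643. All Wy-14643 arrays lay above the controls, but both control spots on slide 1 were left out as outliers, so the control mean of -1.66 rests on 2 arrays. The difference was 1.61 (SE 0.26, 3.06-fold higher, adjusted p = 0.00178). Under the 25 alternatives of the processing, among them one with outlier spots kept, it ran from 1.29 to 1.85 and passed in each. Its partners in the complex did not pass and did not share its size: Ndc80 stood at 0.10 (SE 0.14), Nuf2 at -0.40 (SE 0.17, adjusted p = 0.143) and Spc24, from the list of other mitosis genes, at -0.51 (SE 0.22, adjusted p = 0.151). The centromere genes Cenpa (-0.14) and Cenpe (0.02) did not pass. Where a gene had a second kept probe, its difference took the other sign for Cenpe (-0.37), Kif23 (-0.16), Kif4 (-0.17), Kif15 (-0.08) and Anln (-0.09).

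Other genes of mitosis split as well, with a smaller share called lower. Of 52 listed, 41 were measured, 7 fell (17.1%, where 7.44% of all genes were called lower) and 1 rose, with a median of -0.24. Stmn1, which destabilises microtubules, fell from 0.93, 0.40, 0.28 and 0.31 to -2.00, -0.88, -0.90 and -0.42 (-1.53, SE 0.27, adjusted p = 0.002). Ckap2, a microtubule-bound protein of the spindle, fell from 1.26 and 1.35 on 2 control arrays to 0.33, 0.29 and 0.35 on 3 (-0.98, SE 0.11, adjusted p = 0.000373). Zwint, a kinetochore protein, rose from -0.58, -1.17 and -1.11 to 0.30, 0.18, 0.23 and 0.10 (1.15, SE 0.13, adjusted p = 0.000124), with no overlap. Incenp, the scaffold of the passenger complex around Aurora B, fell as well (-0.86, SE 0.11, adjusted p = 0.00019).

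Of 6 measured controls of entry into mitosis, 1 was called (16.7%, near the 16.4% of all genes called in either direction). Cdkn1a, the CDK inhibitor p21, rose from -1.67, -1.35, -1.78 and -0.20 to 0.69, 0.39, 0.04 and -0.08, 2.85-fold higher (1.51, SE 0.30, adjusted p = 0.00397). Control replicate 4 lay close to the Wy-14643 arrays and did not overlap them. Of 19 measured regulators of these genes, E2f8 (0.56) and Mybl1 (0.27) rose and E2f2 fell (-0.60). These calls make up 15.8% of the list, again near the 16.4% of all genes. E2f8 is a repressor of the E2F family and Mybl1 a relative of MYBL2, whose own gene stood at -0.18 (SE 0.14, adjusted p = 0.432). Of 13 measured subunits and partners of the anaphase promoting complex, 1 passed, Anapc1, at -0.27, with a list median of 0.03. That share, 7.69%, is near the 7.44% of all genes called lower. Of 24 measured S phase genes 5 fell (20.8%, against the 7.44% of all genes) and none rose, with a median of -0.39 and all 24 below 0. Mcm10, which helps start DNA replication, fell 3.57-fold (-1.84, SE 0.16, adjusted p = 1.01e-05), Tk1 fell by 0.79 and Ccne1 by 0.76 on the log2 scale.

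**Figure D2:**
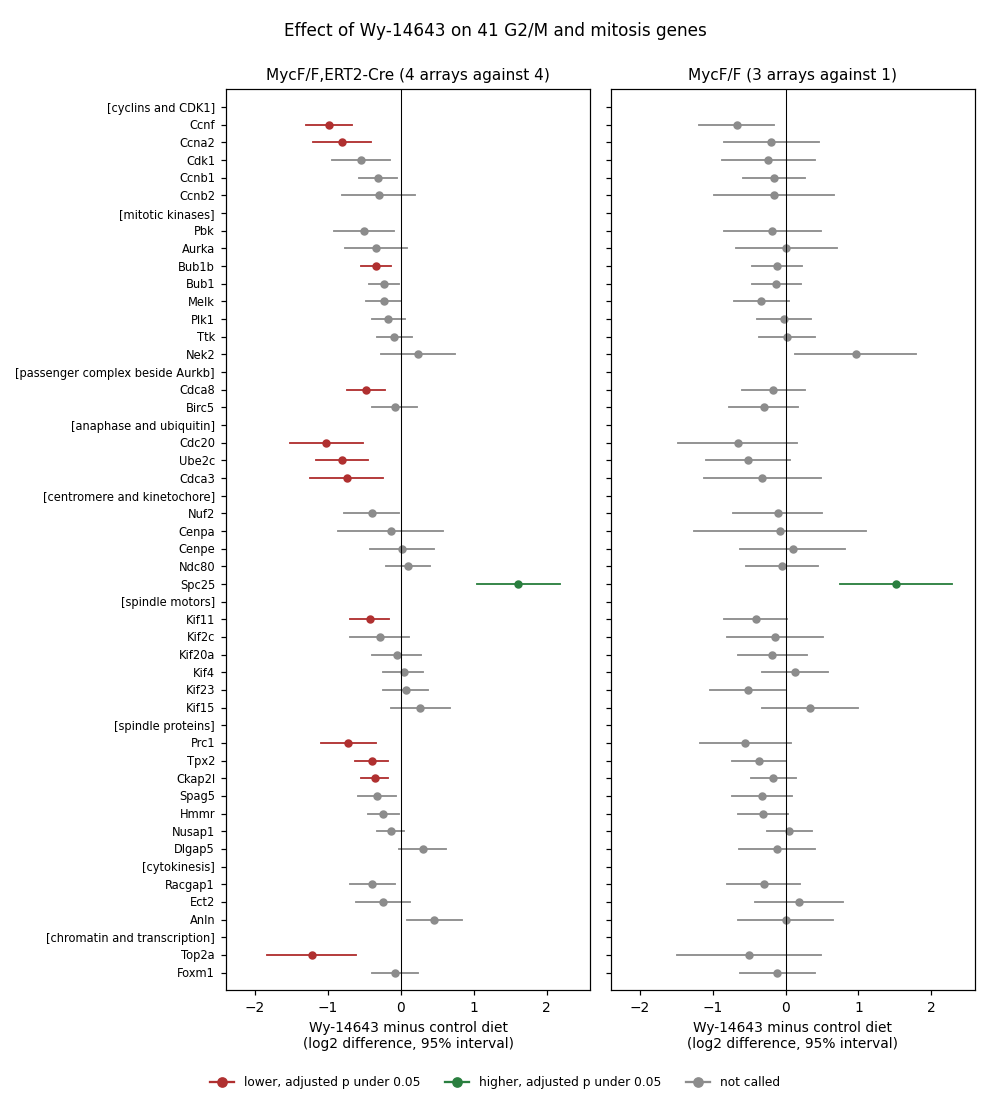
Difference between Wy-14643 and control diet in log2 Cy5/Cy3 with its 95% interval for the 41 measured genes, grouped by role, in MycF/F,ERT2-Cre livers (left) and MycF/F livers (right). On the left 12 genes are called lower and Spc25 is called higher. On the right the intervals are wider and Spc25 alone is called.

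The size of the differences varied between slides and with single arrays. With 1 or 2 arrays of a diet on each slide, slide and array cannot be told apart. Within slides 1, 2 and 3 the median over the measured members was -0.54, -0.22 and -0.14. Top2a differed by -2.22 on slide 1, -1.13 on slide 2 and -0.50 on slide 3. Ccnf differed by -1.14, -0.65 and -1.17. The mean over the members was -0.27 for Wy-14643 replicate 1, on slide 1, and -0.02, -0.03 and 0.04 for the other 3 Wy-14643 arrays. The control means were 0.49, 0.10, 0.16 and 0.11. Without slide 1, 12 genes were called (10 lower, 2 higher), of which 11 were among the 13, Bub1b and Tpx2 were lost and Nek2 was gained. Without control replicate 2 and Wy-14643 replicate 1 together, 9 remained. Left out singly, control replicate 1 or Wy-14643 replicate 1 also left 9. Scaling moved the counts further. Calls over all genes split into 2241 higher and 1871 lower, but 578 and 253 with median centring and 257 and 364 on the Cy5 channel alone. With median centring 5 of the 13 kept their call (Spc25, Top2a, Cdc20, Ccnf and Ccna2), and on the Cy5 channel alone, with no reference, only Spc25 did. There Top2a stood at -1.37 (adjusted p = 0.13), Ccna2 at -0.89 and Ccnf at -0.30.

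**Figure D3:**
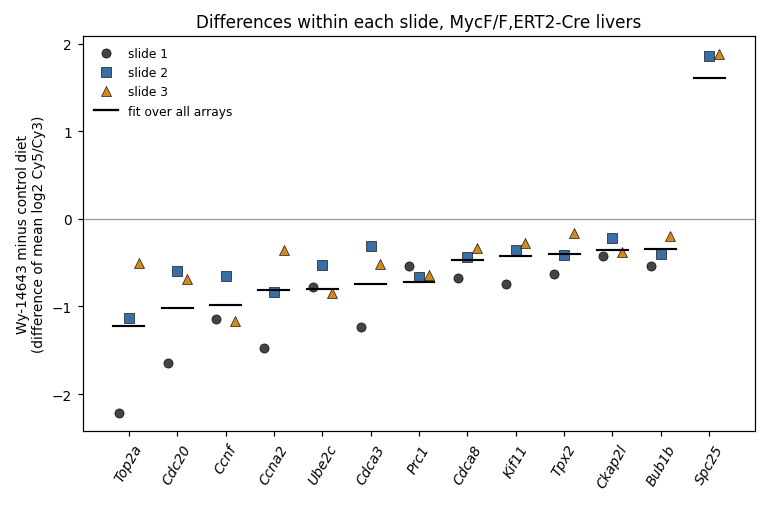
Difference between the mean log2 Cy5/Cy3 ratio on Wy-14643 and on control diet within each slide (points) for the 13 called genes in MycF/F,ERT2-Cre livers, with the fitted difference over all arrays (line). The sign of the 12 genes that fell is set by the choice of genes whose groups do not overlap, but their size varies, from -2.22 to -0.50 for Top2a. Spc25 has no control value on slide 1.

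Markers of some cell types moved with the same comparison, where 7.44% of all genes were called lower and 16.4% in either direction. Of 10 Kupffer cell markers 6 fell, and their mean was 0.17 to 0.90 on control arrays and -0.33 to -0.14 on Wy-14643 arrays. Of 9 hepatocyte markers 6 fell (means of 0.87 to 1.07 against -0.28 to 0.20), of 9 stellate cell markers 4 (0.13 to 0.25 against -0.30 to -0.04) and of 8 endothelial markers 2 (0.09 to 0.18 against -0.17 to -0.12). Of 8 measured B and T cell markers, Cd79b alone fell, 12.5% of the list (0.05 to 0.29 against -0.09 to -0.04), and none of 6 neutrophil markers passed (0 to 0.46 against -0.03 to 0.18). Of 5 erythroid markers 2 fell and 1 rose (-0.10 to 0.57 against -0.38 to -0.14), and of 6 cholangiocyte markers 1 fell and 1 rose (0.14 to 0.20 against 0.01 to 0.13). Cd8a, Ly6g, Hbb-b1 and Epb42 had no kept probe. The part of these cells in the fall of the mitotic genes was not tested.

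In MycF/F livers, Wy-14643 was compared with the single pooled control array, which was assumed to vary like the other groups. Spc25 was again called, and it was the only one of the 41 (2.44%), where 3.34% of all genes were called higher, 3.22% lower and 6.56% in either direction. It read -1.07 on the control array and 0.75, 0.19 and 0.39 on Wy-14643 (1.52, SE 0.35, adjusted p = 0.0267). Its call was lost with replicate number as a block, with median centring, on the Cy5 channel alone, with the deposited log ratio, and without Wy-14643 replicate 1 or 3. With slide as a block Prc1 fell too (-0.73, adjusted p = 0.0231). The differences of the 12 genes above did not pass here: Cdc20 stood at -0.65 (SE 0.38), Ccnf at -0.67 (SE 0.24), Prc1 at -0.55 (SE 0.28), Ube2c at -0.52 (SE 0.27), Top2a at -0.50 (SE 0.45), Kif11 at -0.41 (SE 0.20) and Ccna2 at -0.20 (SE 0.30), and the other 5 ran from -0.37 to -0.12. The dimmer Kif11 probe read 0.08. The median of the 41 was -0.16, and 32 lay below 0. On slide 2, which held both diets, the median of the 41 was -0.30. The related lists did not lie lower as a whole with all arrays. Of 24 measured S phase genes 15 lay above 0 (median 0.15), and of 41 other mitosis genes 23 did (median 0.06).

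Leaving out slide 1 moved the calls here too. MycF/F replicate 1 on Wy-14643, on slide 1, had a member mean of 0.38, against 0.08 and 0.15 for replicates 2 and 3 and 0.33 for the control array. Without slide 1, 7 of the 41 were called in MycF/F livers, where 2825 of 24878 genes (11.4%) were: Cdc20 (-0.88, adjusted p = 0.00307), Ccnf (-0.83), Prc1 (-0.71), Cdca3 (-0.56) and Kif11 (-0.49) lower and Spc25 (1.36) and Nek2 (0.82) higher. Outside the 41, Ckap2 (-1.28), Mcm10 (-1.95), Zwint (1.09) and Cdkn1a (1.87, adjusted p = 0.0395) passed in MycF/F livers with all arrays.

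**Figure D4:**
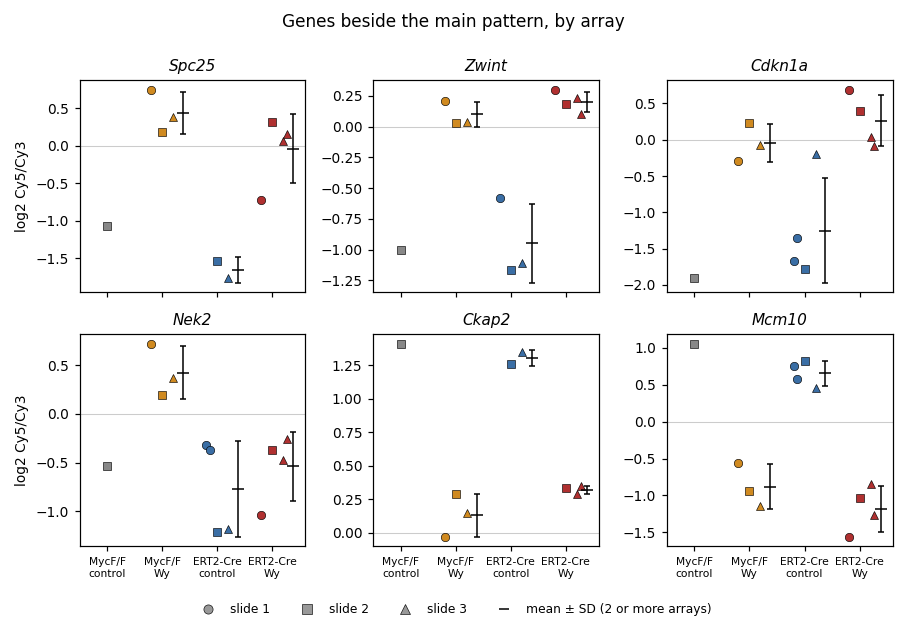
Log2 Cy5/Cy3 ratio on each array (points, shape by slide) of Spc25, Nek2 and 4 genes of related lists, with the mean ± SD of groups of 2 or more arrays. Spc25, Zwint and Cdkn1a sit higher and Ckap2 and Mcm10 lower on Wy-14643 in both genotypes, while Nek2 sits above 0 on the 3 MycF/F arrays on Wy-14643 alone.

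The genotypes were then compared on Wy-14643, 4 MycF/F,ERT2-Cre arrays against 3 MycF/F arrays. None of the 41 genes passed the test with limma (0.0676% of all genes did, 17 of 25150, with 0.0517% lower and 0.0159% higher), and 14 had an unadjusted p under 0.05, all lower in MycF/F,ERT2-Cre, where 2131 of all genes (8.47%) had one in either direction. With replicate number as a block, 0 of all genes passed, and with slide as a block 33 did, 0 of the 41 among them. Between these groups equal replicate numbers share a slide, but control arrays in the same fit do not always do so. The median over the 41 was -0.20, against 0.02 over all genes, and 36 lay below 0. For 12 of the 41 every MycF/F,ERT2-Cre array lay below every MycF/F array, and for Kif23 above, where 6.47% and 7.31% of all genes did so, 13.8% in either direction. Top2a read 0.62, -0.17 and 0.14 in MycF/F and -1.61, -0.71, -0.66 and -0.23 in MycF/F,ERT2-Cre, without overlap (-1.0, SE 0.30, interval -1.65 to -0.35, adjusted p = 0.265). Within slides that difference was -2.23, -0.55 and -0.58, and the dimmer Top2a probe read -0.30 (SE 0.14).

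Nek2, a kinase that splits centrosomes in G2, had the smallest adjusted p of the 41 in this comparison. On Wy-14643 it read 0.72, 0.19 and 0.37 in MycF/F livers and -1.04, -0.37, -0.47 and -0.26 in MycF/F,ERT2-Cre livers, again without overlap (-0.96, SE 0.25, interval -1.51 to -0.41, adjusted p = 0.189). The MycF/F control array read -0.54 and the MycF/F,ERT2-Cre controls -0.32, -0.37, -1.21 and -1.18. So only the 3 MycF/F arrays on Wy-14643 lay above 0. Without slide 1 the difference was -0.64 (adjusted p = 0.0352), the only call among the 41. Cdk1 (-0.61, adjusted p = 0.289), Cdc20 (-0.67), Cdca3 (-0.61), Ccna2 (-0.59), Ect2 (-0.53), Aurka (-0.50), Kif20a (-0.40), Ccnf (-0.36), Nusap1 (-0.30) and Ckap2l (-0.25) also lay lower without overlap and did not pass. Of the 12 genes that fell, Kif11 (-0.05), Tpx2 (-0.12) and Bub1b (-0.13) showed the smallest differences between genotypes. The dimmer Kif11 probe read -0.16 (SE 0.08). For Ect2 the MycF/F arrays read 0.76, -0.02 and 0.04, so 1 array lay far above the others. Its dimmer kept probe, well above background on all 12 arrays, read a difference of -0.11 (SE 0.11), with overlap. Bub1b, Cdk1 and Ckap2l were not well above background on any MycF/F,ERT2-Cre array on Wy-14643. Their level there is only bounded from above, so the size of their differences is uncertain. Spc25 stood at -0.49 (SE 0.23) with overlap.

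No gene of the related lists passed the test here. All 24 S phase genes lay below 0 with a median of -0.88, and 36 of 41 other mitosis genes did, with a median of -0.34. Of the G2 entry controls 2 of 6 lay below 0 (median 0.03), and of the regulators 10 of 19 (median -0.08). Mad2l1, a checkpoint protein, read 0.53, 0.11 and 0.13 against -1.45, -0.58, -0.48 and -0.63 (-1.04, SE 0.21, adjusted p = 0.0947). Kupffer markers lay above 0 here, 10 of 10 with a median of 0.39, and hepatocyte markers at a median of 0.06, none of them called.

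On control diet, MycF/F,ERT2-Cre was set against the single MycF/F array, and 0 of the 41 and 0 of 24893 genes (0%) passed with limma. At an unadjusted p under 0.05 there were 1 of the 41, Kif20a at -0.53, and 440 of all genes. The median over the 41 was -0.10. The test of the difference itself, the Wy-14643 effect in MycF/F,ERT2-Cre minus that in MycF/F, called 0 of the 41 and 0 of 24873 genes (0%). At an unadjusted p under 0.05 it gave 0 of the 41 and 540 of all genes. The interval was -1.39 to 0.15 for Ccna2 and -1.87 to 0.44 for Top2a, so neither equal effects nor a larger fall in MycF/F,ERT2-Cre could be shown with 1 MycF/F control array. For Spc25 the effects differed by 0.10 (interval -0.86 to 1.06).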

How the data were processed

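Whole-liver RNA was read on 12 Agilent mouse arrays with 2 colours, 4 on each of 3 slides. The deposited intensity of each spot is in scanner units, extracted, per the file headers, with Agilent Feature Extraction 11.0.1.1. The deposited log10 ratio of Cy5 to Cy3, after that software's own corrections per the file headers, served only as an alternative. The authors' RNA was amplified to antisense RNA before dye coupling, per the labels' protocols.

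All fits used limma 3.58.1 under R 4.3.3, promoters and figures in Python with pandas and matplotlib. Median signals were corrected with normexp (offset 50), and log2 ratios were loess-normalized within each array. Control spots had no weight and outlier spots were left out. Probes with Cy5 well above background on 3 or more of the 12 arrays were kept, and the brightest kept probe stood for a gene. Accessions were named through a RefSeq table of GRCm38.p6, which matched 16792 of 17440 RefSeq mRNA accessions. For Ckap2l, dim in a group, the 1.18-fold value compares the bright group's mean Cy5 level, after scaling between arrays, with a floor for the dim group. The floor was the lowest level of any probe well above background on an array, or the gene's own level where higher. Probes not well above background can lie above that floor, so the fold is not a strict bound. The fold is also open to dye bias, since dyes were not swapped.

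The fit had 1 mean per group over all 12 arrays. As alternatives, median centring took the place of loess, and the Cy5 channel was fitted without the reference. Tests were two-sided, adjusted by Benjamini-Hochberg over all genes of a comparison, and called under 0.05. The number of arrays limits the precision. The script was tested on simulated data. The members, the lists and the rule for named genes (members called in any comparison and 8 set in advance, and of other lists at most 3 called genes) were chosen with earlier results of these data known. Incenp, Spc24, Mybl2, Mad2l1 and Cd79b were singled out after their values were seen. Comparisons share arrays, so no agreement between them is given. Replicate numbers were checked as pairs by the correlation of deviations from group means over all genes. Between the diets in MycF/F,ERT2-Cre livers it was 0.318, -0.0753, -0.022 and 0.0924, so the numbers did not pair them. Over all pairs of these arrays it ran from 0.0924 to 0.318 on a shared slide and from -0.239 to 0.104 on different slides. The main fit had no slide term. Between the genotypes on Wy-14643 the correlation was 0.417, 0.144 and 0.137, in arrays that also share a slide.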

Additional observations from a re-analysis of the deposited data

Results flagged for a closer look

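Each value below stood far from the other 3 arrays of its group by a gap test at the 95% level, which by chance marks about 1 in 20 groups. Of 78 groups of 4 arrays tested, 8 were marked, 7 of them by an array on slide 1. On MycF/F,ERT2-Cre control replicate 1, Cdc20 read 1.03 (others 0.09 to 0.11), Ect2 0.21 (others -0.12 to -0.08) and Pbk 0.71 (others -0.12 to -0.01). On MycF/F,ERT2-Cre Wy-14643 replicate 1, Cenpa read -0.60 (others 0.97 to 1.04), Ect2 -0.63 (others -0.16 to -0.14), Ube2c -0.19 (others -0.48 to -0.44) and Prc1 0.09 (others -0.46 to -0.42). On control replicate 3, on slide 2, Cenpe read 0.89 (others 0.01 to 0.08). The same array was thus lowest for Cenpa and Ect2 and highest for Ube2c and Prc1 among the 4.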

How the results depend on the processing

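In MycF/F,ERT2-Cre livers the effect of Wy-14643 called 13 members and 4112 genes (2241 higher, 1871 lower). Median centring gave 5 members and 831 genes (578 higher, 253 lower), and the Cy5 channel alone 1 member and 621 genes (257 higher, 364 lower). Leaving out 1 array gave 9 to 14 members and 3108 to 4112 genes. The replicate block gave 14 members and the slide block 15. In MycF/F livers the 1 member and 1635 genes became 0 members and 184 genes with median centring, 0 and 1054 with the deposited log ratio, 0 and 74 on Cy5 alone, 2 members with the slide block, 0 members with the replicate block, and 7 members and 2825 genes without slide 1. Leaving out 1 array gave 0 to 1 members and 1097 to 1893 genes. Between genotypes on Wy-14643, the 17 genes became 0 with median centring, the deposited log ratio, Cy5 alone or the replicate block. They became 33 with the slide block, 41 with outlier spots kept, 27 with the mean of kept probes, 46 with only the 2 groups fitted, and 107 without slide 1, where 1 member was called. Leaving out 1 array gave 0 to 27 genes and 0 members. On control diet 2 genes were called without slide 1. The replicate block changed no other member's call than Kif11 (lost), Ccnb1 and Pbk (gained) and Spc25 in MycF/F livers. The cause of these shifts was not tested.

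Some differences changed sign, none of them called. For the effect of Wy-14643 in MycF/F,ERT2-Cre livers, Foxm1 read 0.15 on Cy5 alone, and leaving out 1 array gave -0.20 to 0.01 for Foxm1 and for Birc5, with the highest value without control replicate 1. Between genotypes on Wy-14643, Birc5 read 0.08 with median centring, 0.07 with the replicate block and 0.03 without slide 1, Foxm1 0.22 and Ccnf 0.26 on Cy5 alone, and Kif11 0.13 and Tpx2 0.02 without slide 1. Leaving out 1 array there gave -0.10 to 0.03 for Birc5, -0.27 to 0.03 for Foxm1 and -0.13 to 0.05 for Kif11. Kif11 also read 0.05 without control replicate 2 and Wy-14643 replicate 1 together, an alternative chosen after seeing the data. Signal over background was too low for 6 members on every MycF/F,ERT2-Cre array on Wy-14643, and it left Aurkb and Kif18a without values.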
